A study of Mus musculus with 6 samples.

Results

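The genes described here encode the proteins of the cytosolic ribosome. They were taken as the protein-coding rows of the table of nuclear RNA whose names start with Rpl or Rps and continue with a subunit number, the letter a or the stalk code p and a digit. Of 54232 genes in the table, 80 met this rule, 49 for the large and 31 for the small subunit, and 78 of them (47 large, 31 small) had a mean normalised read count of at least 10 and were tested. The other 2, Rpl10l and Rpl39l, stayed under that level. Another 3 rows had fitting names but are annotated as pseudogenes and were left out. The gene description in the table named a ribosomal protein for each of the 80.

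The RNA came from left ventricular cardiomyocyte nuclei of adult male mice, released from frozen tissue, stained for PCM1, which accumulates at the surface of cardiomyocyte nuclei, and sorted at 150000 nuclei per library. UtyGT mice carry a gene trap in intron 4 of the Y-linked gene Uty, from 129P2/OlaHsd embryonic stem cells, and were backcrossed to C57BL/6J. The isogenic WT mice came from 129P2/OlaHsd males backcrossed to C57BL/6J females in the same way, so that the Y chromosome has the same origin in both groups. The trap is carried in the germline and is not limited to the heart, and the mice derive from gene-trap cells of the line E14Tg2a.4. There were 3 UtyGT and 3 WT libraries, and the numbers 11, 15 and 31 occur once in each group. Nuclei were prepared on different days, and a second deposited table, which holds numbers 11 and 31, is named for a day effect, but no source used here ties a number to a day or says how many animals gave a library, so that p-values reflect how far these libraries differ from each other, and part of that spread may be technical.

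Each ribosome contains a large subunit, which joins amino acids, and a small subunit, which reads the messenger RNA. Cells make the proteins of both in matched amounts, and in mammals the messenger RNAs of most of them start with a run of C and U bases, the terminal oligopyrimidine (TOP) tract, through which growth signals acting on mTOR and LARP1 set their translation. Striated muscle also expresses Rpl3l, a paralog that takes the place of the widely expressed Rpl3 in a part of its ribosomes. Nuclear RNA holds these messages before export, so the values below are levels in the nucleus and not amounts of ribosome. In sorted nuclei, fewer nuclei of a type and less RNA per nucleus cannot be told apart.

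The 30-base windows around the annotated transcription start, with 10 bases before it and 20 from it, are shown for members with a long C/T run, for Rplp2, the member with the smallest p of the group comparison, and for Rpl3l, which departed from the other members across libraries. They are RefSeq sequences on the GRCm38.p6 build, written 5′ to 3′ on the transcribed strand, with the longest run of C and T in capitals.
Rpl27a (chr7:109519185-109519214, plus strand): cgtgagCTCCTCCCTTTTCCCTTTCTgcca
Rpl35 (chr2:39005112-39005141, minus strand): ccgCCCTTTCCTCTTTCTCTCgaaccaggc
Rpl15 (chr14:18270967-18270996, minus strand): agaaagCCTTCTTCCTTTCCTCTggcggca
Rps6 (chr4:86857348-86857377, minus strand): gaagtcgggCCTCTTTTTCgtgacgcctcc
Rplp2 (chr7:141447641-141447670, plus strand): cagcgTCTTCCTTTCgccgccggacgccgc
Rpl3l (chr17:24727816-24727845, plus strand): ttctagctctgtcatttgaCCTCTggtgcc

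A run of at least 8 bases of C or T only, searched on the transcribed strand, was present in this window at an annotated start of 23 of the 60 members found in the sequence table (38.3%; 14 of 37 large, 9 of 23 small), against 3517 of all 27025 genes (13.01%). The longest run was 20 bases in Rpl27a, 10 in Rps6 and in Rplp2, and 5 in Rpl3l. A match of letters is a description of the window and does not locate the start used in these nuclei.

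The 80 members took only a small part of the nuclear reads. Their share was 0.183%, 0.182% and 0.204% of gene reads in UtyGT 11, 15 and 31, and 0.216%, 0.210% and 0.192% in WT 11, 15 and 31. The 95% Wilson intervals, which cover counting error only, reached at the widest from 0.190 to 0.194%, in WT 31. The groups overlapped, since UtyGT 31 lay above WT 31. Gene reads were between 19900137 and 22876369 in UtyGT and between 18204752 and 23252887 in WT. The trapped gene fitted its labels, with a mean normalised count for Uty of 18.7 ± 4.13 in UtyGT and 1286 ± 65.1 in WT (SD, n = 3 each), and it was the only gene that limma called between the groups. Its neighbour Ddx3y, for an RNA helicase, had 230.4, 257 and 87.8 in UtyGT, and 1334, 1143 and 1211 in WT. Its groups did not overlap and its log2 fold change was −2.82 (SE 0.38), yet it did not pass by limma (adjusted p = 1.00), so that a gene missing from the calls may still differ. The study, which used DESeq2, reported Ddx3y as significantly decreased in the nuclear RNA of UtyGT mice. Here, DESeq2 called 2 genes, limma with the number as a block 2, and DESeq2 with the block 4. Nuclear markers of ventricular cardiomyocytes (8 genes) were abundant in every library. They took 10.7%, 10.2% and 9.07% of gene reads in UtyGT 11, 15 and 31, and 9.46%, 9.52% and 12.2% in WT.

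Levels between genes are given as normalised counts per kilobase of annotated exon, averaged over the 6 libraries, since the counts themselves grow with gene length. Rpl3l stood highest of all 78 members. Its level was 1829, 1922 and 1563 per kilobase in UtyGT 11, 15 and 31, and 1621, 2026 and 1904 in WT 11, 15 and 31. Within the large subunit it was followed by Rpl36, with 1403 per kilobase, and by the stalk protein gene Rplp1, with 1358. Next in that subunit were the stalk base gene Rplp0, with 741, and Rpl8, with 668. Rpl3l, Rpl36 and Rplp1 overlapped in their ranges over libraries: Rpl3l spanned 1563 to 2026, Rpl36 1302 to 1590 and Rplp1 1171 to 1631 per kilobase. Rpl3l, Rpl36 and Rplp1 kept this order when the length of the main messenger RNA replaced that of all exons, and Rpl3l was then at 2164.

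In the small subunit, Rps15 (775), Rps2 (579), Rps23 (493) and Rpsa (447) were among the highest levels per kilobase of exon, and the last of these encodes the protein also known as the laminin receptor. The median member had 263 per kilobase in the large and 188 in the small subunit. Over the main messenger RNA the medians were 480 and 542, so that the order of the subunits turned round and neither can be called higher per length.

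**Figure D1:**
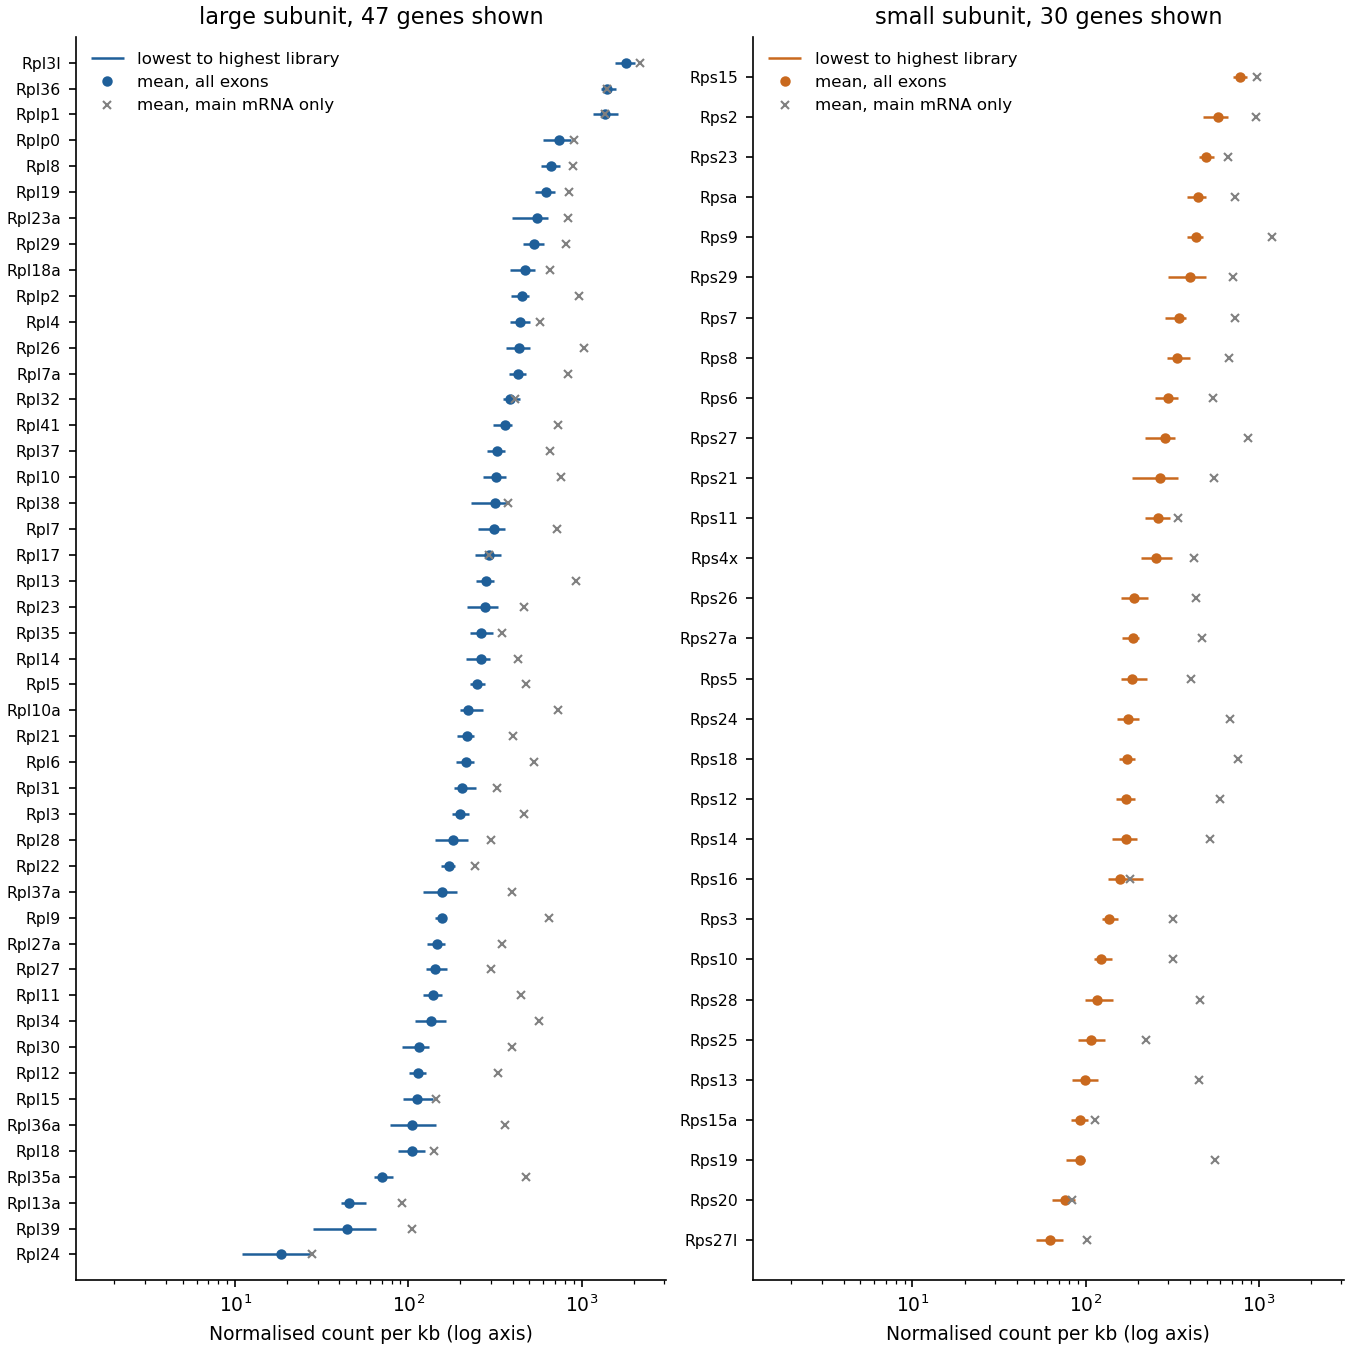
Levels of tested members, as normalised count per kilobase on a log axis, with the large subunit left and the small subunit right. Points are means over 6 libraries per kilobase of all exons, bars run from the lowest to the highest library, and crosses use the main messenger RNA; Rpl3l is at the top with 1811 per kilobase and Rpl24 at the bottom with 18.3.

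The lowest tested large subunit genes per kilobase of exon were Rpl24 (18.3), Rpl39 (44.5), Rpl13a (45.5), Rpl35a (70.6) and Rpl18 (104). For Rpl24, 47.0% of the exon bases also belong to another gene on the same strand, and for Rpl13a 35.4%. Reads there may have been assigned to neither gene or to both, and how the counting treated them is not given in the sources used here. In the small subunit, Rps27l (62.6), Rps20 (76.0), Rps19 (92.7), Rps15a (93.2) and Rps13 (98.8) stood lowest. Rpl35a and Rps19 have many annotated exon bases outside their main messenger RNA, over which they had 480 and 561 per kilobase.

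Paralogs differed widely in level. Rpl3l (ENSMUSG00000002500, GRCm38 chr17:24727820-24736143, plus strand) had normalised counts of 3005, 3158 and 2569 in UtyGT 11, 15 and 31, and 2664, 3329 and 3128 in WT 11, 15 and 31. Rpl3 (ENSMUSG00000060036, chr15:80077791-80091868, minus strand) had 568, 569 and 711 in UtyGT, and 685, 584 and 669 in WT. In every library Rpl3l exceeded Rpl3.

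Per kilobase of exon, the ratio of Rpl3l over Rpl3 was 10.2, 10.7 and 6.98 in UtyGT 11, 15 and 31, and 7.51, 11.01 and 9.04 in WT. Over the main messenger RNAs it was lower, between 3.55 and 5.45 in UtyGT and between 3.82 and 5.60 in WT. The ratio was lowest in UtyGT 31 and next in WT 11, and the groups overlapped. Among all reads of members, Rpl3l took 7.83%, 8.10% and 5.82% in UtyGT 11, 15 and 31, and 5.88%, 7.42% and 8.29% in WT, with Wilson intervals that span at most 7.55 to 8.11% in UtyGT 11 and 8.002 to 8.58% in WT 31.

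Other paralogs of the large subunit were at or near 0 reads. Rpl10l, an autosomal relative of the X-linked Rpl10 known from testis, had 0 reads in each of the 6 libraries, which allows up to 3 in each. Rpl39l, a relative of Rpl39 known from testis, had 0 reads in 5 libraries and 1 in WT 15. Their partners were measured: Rpl10 had 593, 550.5 and 688 in UtyGT, and 751, 745 and 602 in WT. Rpl39, with 56.8, 40.4 and 93.0 in UtyGT, and 71.3, 66.3 and 55.1 in WT, was among the lowest members and spread 2.304-fold between its lowest and highest library.

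In the small subunit, Rps27l, a p53-responsive relative of Rps27, had 42.1, 56.4 and 60.6 normalised counts in UtyGT, and 51.6, 51.6 and 44.3 in WT. Rps27 had 228, 311 and 344 in UtyGT, and 319, 328 and 256 in WT. The X-linked Rps4x had 361, 341 and 481 in UtyGT, and 513, 422 and 367 in WT. Its processed pseudogene Rps4l, which is no member, had 90.5, 110 and 125 in UtyGT, and 75.02, 79.2 and 96.2 in WT. These 4 sets of values overlap between the groups, and reads shared between near-identical copies could move between Rps4x and Rps4l. Named pseudogenes of members, 292 in the annotation for 59 members, held 1.88% as many counts as the members, so that reads of members may have been lost to copies or gained from them.

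The comparison of UtyGT with WT asked which transcripts change with the gene trap. No ribosomal protein gene was called in these libraries by limma on log2(normalised count + 1): 0 of 78 passed an adjusted p of 0.05, against a background of 0.00617% of the 16202 genes tested. At an unadjusted p under 0.05 the count was 0 of 78, against 195 genes, which is 1.2% of all tested. edgeR and DESeq2 on the recovered reads also called 0 of 78. The smallest unadjusted p of a member was 0.120 and the smallest adjusted p 1.00, both by limma.

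Most members were slightly lower in UtyGT. Their log2 fold change was below 0 for 63 of 78 (38 of 47 large, 25 of 31 small), against 51.4% of all genes tested. The median over members was −0.08 on the log2 scale, −0.08 for the large and −0.06 for the small subunit, and −0.0055 over all genes tested. The members share libraries and vary together, so that this count is a description of 6 libraries and not 78 observations.

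For no member did the 3 UtyGT values all lie below, or all lie above, the 3 WT values (0 of 78 in either direction), while 2.32% of all genes tested had every UtyGT value lower and 3.1% had every UtyGT value higher. The 95% limma intervals lay within a 2-fold change in either direction for 77 of 78 members, all but Rpl24. For 69 of 78 they lay within a 1.5-fold change. Rpl24, the least abundant tested member, had the widest interval, from −1.35 to 0.59 on the log2 scale. The data therefore bound the change of a typical member, whose interval reached 0.32 to either side, more closely than that of the low members.

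The shift depended on single libraries. Without UtyGT 31 the median was −0.15. Without WT 31 it was −0.16, and 9 of 78 members then had an unadjusted p under 0.05 in limma, with 0 called. In that same fit, 280 of all 16189 genes tested had such a p. The median over members was −0.03 without UtyGT 11, −0.04 without UtyGT 15, −0.02 without WT 11 and −0.04 without WT 15. In the table normalised on the 4 libraries numbered 11 and 31 alone it was 0.011, and 35 of 78 members were below 0.

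**Figure D2:**
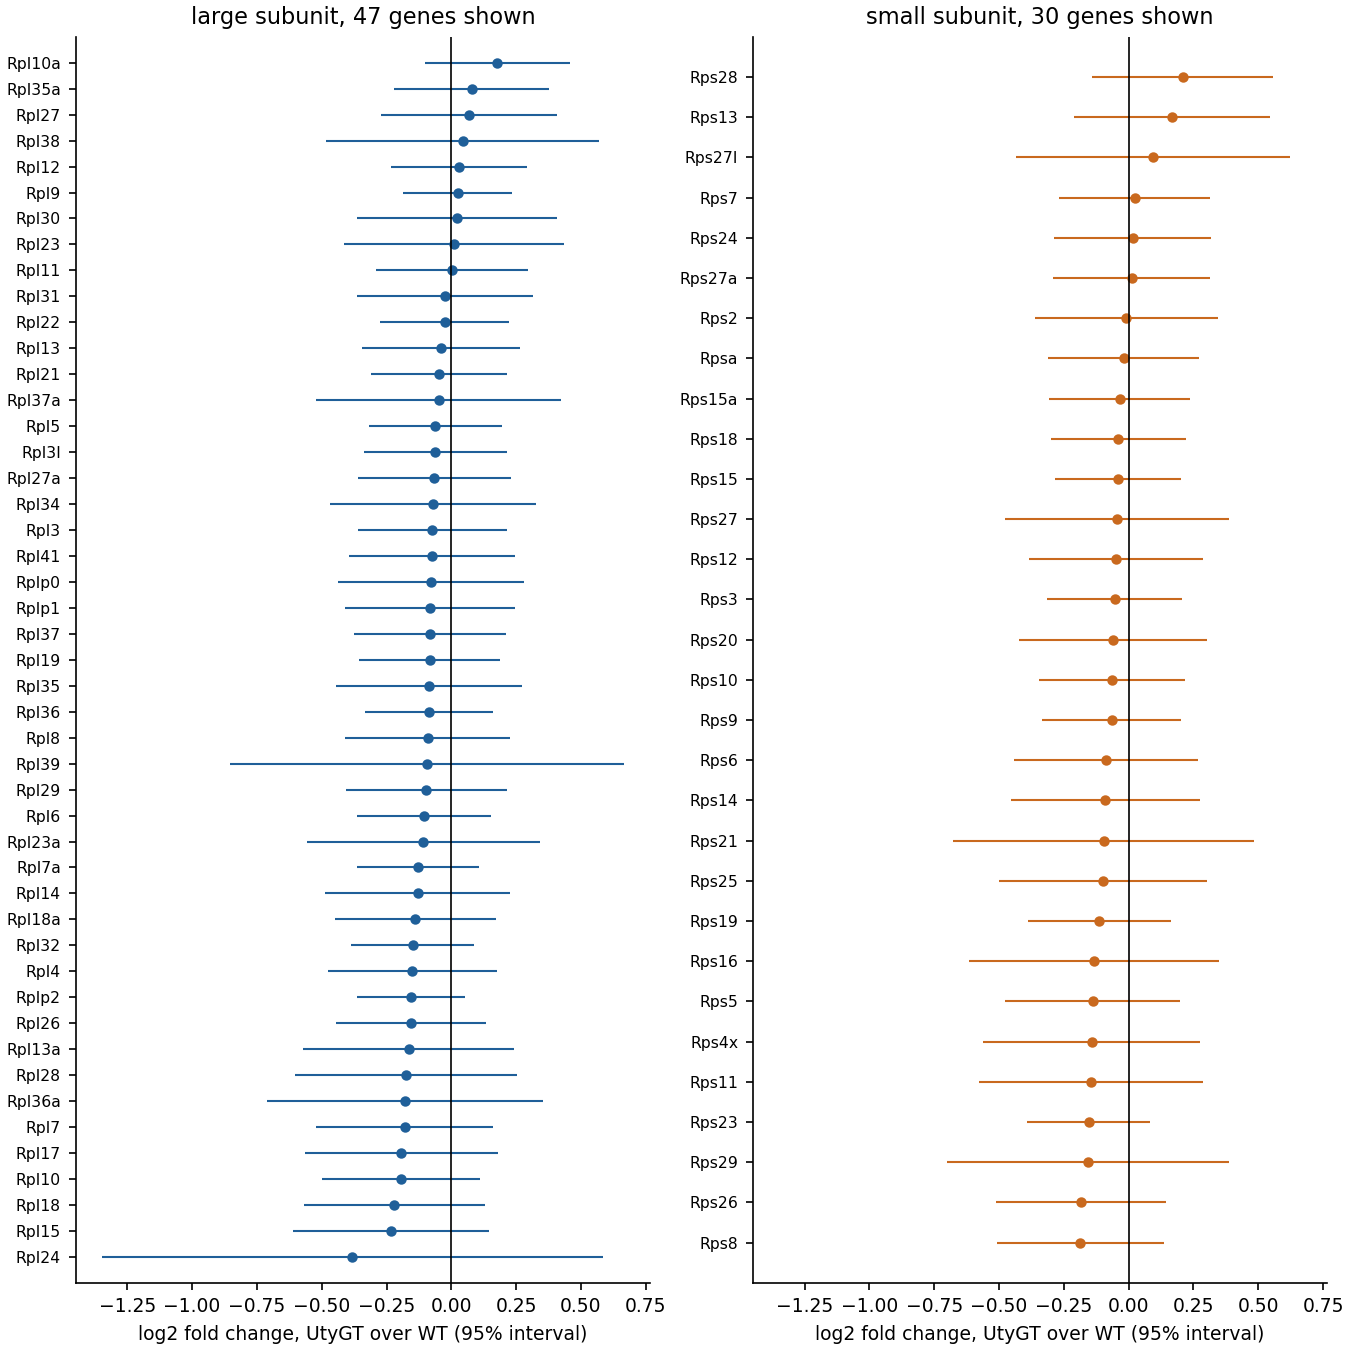
Log2 fold change of UtyGT over WT for tested members, with its 95% interval from limma (3 libraries a group), large subunit left and small subunit right, ordered by size within each panel. Most points lie below 0, and all intervals include 0.

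Among the members below 0, the smallest p belonged to Rplp2, which encodes an acidic protein of the ribosomal stalk that recruits translation factors (ENSMUSG00000025508, GRCm38 chr7:141447370-141451585, plus strand). Its counts were 891, 812 and 947 in UtyGT, and 984, 1027 and 937 in WT. UtyGT 31 lay just above WT 31. The log2 fold change was −0.16 (SE 0.09, interval −0.36 to 0.05, adjusted p = 1.00 by limma).

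Rps23, whose protein sits in the decoding centre of the small subunit (chr13:90922958-90924950), had 571, 570.2 and 631 in UtyGT, and 698, 688 and 589.9 in WT, and a log2 fold change of −0.15 (SE 0.10). Rpl10, whose protein joins the large subunit late in its assembly (chrX:74270812-74273135), had −0.19 (SE 0.13). Rpl18 had 355, 411 and 400.4 in UtyGT, and 504, 498 and 367 in WT, with −0.22 (SE 0.15). Rpl32 had −0.15 (SE 0.10). In each of these 4 genes, WT 31 lay within the range of UtyGT, while WT 11 and WT 15 lay above it.

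The members above 0 with the smallest p were Rpl10a, Rps28, Rps13, Rpl35a and Rpl27. Rpl10a, a large subunit protein near the exit of the transfer RNA (chr17:28328471-28331033), had 510.3, 659 and 542 in UtyGT, and 533, 489 and 482 in WT. Its log2 fold change was 0.18 (SE 0.12, interval −0.10 to 0.46). Rps28 (chr17:33819027-33824562) had 195, 202 and 246 in UtyGT, and 209, 175 and 171 in WT, with 0.21 (SE 0.15). UtyGT 11 lay below WT 11 in both genes. Rps13 had 0.17 (SE 0.16), Rpl35a 0.08 (SE 0.13) and Rpl27 0.07 (SE 0.14), and the adjusted p of all 5 was 1.00 by limma.

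Rps16, which the study used as the reference gene of its RT-qPCR assays (ENSMUSG00000037563, chr7:28350652-28353155, plus strand), had nuclear counts of 176, 170.0 and 221 in UtyGT, and 271, 174 and 185 in WT. WT 11 stood above the other 5 libraries, and the rest overlapped. The log2 fold change was −0.13 (SE 0.20, interval −0.62 to 0.35). A small nucleolar RNA, AF357399, is annotated inside the gene, and its reads could be counted with an overlapping exon or intron.

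The stalk base gene Rplp0 had 1111, 1170.5 and 1284 in UtyGT, and 1437, 1379 and 991 in WT, so that WT held both the highest and the lowest library. Rplp1 had 627, 615 and 727 in UtyGT, and 814, 699 and 585 in WT, with the same order in WT. Rps6, the protein phosphorylated by the S6 kinases downstream of mTOR, had 421, 447 and 511 in UtyGT, and 535, 544 and 397 in WT. Rpsa had 1327, 1309.5 and 1580 in UtyGT, and 1578, 1475 and 1226 in WT. The log2 fold changes of these 4 were −0.08 (SE 0.15), −0.08 (SE 0.14), −0.09 (SE 0.15) and −0.02 (SE 0.12), in the order named.

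The library-to-library shifts were larger than the difference of the groups and ran across both of them. Relative to each gene's mean over the 6 libraries, the median member stood at −0.13 in UtyGT 11, −0.10 in UtyGT 15 and 0.11 in UtyGT 31, and at 0.15 in WT 11, 0.13 in WT 15 and −0.16 in WT 31, on the log2 scale. The same medians over all genes tested were between 0.0042 and 0.0086. Both subunits moved alike: UtyGT 11, UtyGT 15 and WT 31 were low in both, and UtyGT 31, WT 11 and WT 15 were high in both.

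The members followed this order closely. In UtyGT 11, 10 of 78 were above their own mean, in UtyGT 15 20, and in UtyGT 31 68. In WT 11, 70 of 78 were above it, in WT 15 68, and in WT 31 5. Those 5 were Rpl3, Rpl3l, Rpl13a, Rpl35a and Rplp2, named after their values were seen. The lowest library of a member was WT 31 for 27, UtyGT 15 for 25 and UtyGT 11 for 22, and the highest was WT 11 for 38, UtyGT 31 for 21 and WT 15 for 16.

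**Figure D3:**
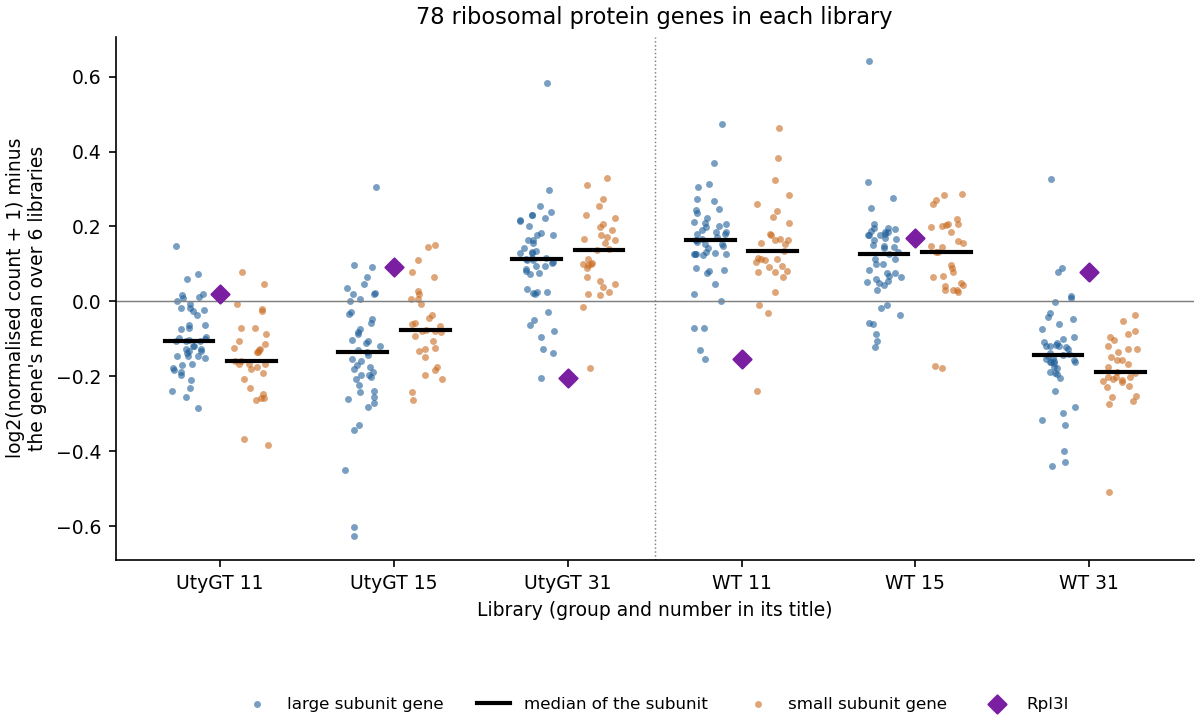
Each point is 1 member in 1 library, as its log2(normalised count + 1) minus the gene's mean over the 6 libraries, with large subunit genes left and small subunit genes right in each library and black bars at the subunit medians. Diamonds mark Rpl3l, which lies on the other side of 0 from the subunit medians in UtyGT 11, 15 and 31 and in WT 11 and 31, and on the same side only in WT 15.

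Within pairs of equal number, the sign of the difference of UtyGT minus WT turned round. The median member differed by −0.28 for number 11, by −0.23 for number 15 and by 0.28 for number 31. UtyGT was lower in 76 of 78 members for number 11, with Rpl3l and Rps13 as the exceptions, and in 70 of 78 for number 15. For number 31 it was lower in 4 of 78, which were Rpl13a, Rpl32, Rpl3l and Rps15a, named after their values were seen. Of the 3 pairs, number 31 thus had the opposite direction from numbers 11 and 15 for most members. Over all 16202 genes tested UtyGT was lower in 8431, 8506 and 7605 for numbers 11, 15 and 31. Some other lists had the same order of signs. Median differences for numbers 11, 15 and 31 were −0.14, −0.08 and 0.23 in other TOP genes. They were −0.14, −0.50 and 0.81 in mitochondrially encoded genes, and −0.80, −1.38 and 0.78 in erythroid markers. Other lists did not have it, with 0.02, 0.11 and −0.05 in ribosome biogenesis genes and −2.08, 0.03 and 0.63 in fibroblast markers. Regulators of TOP messages, respiratory chain genes, and ventricular, endothelial and mural cell markers did not have it either.

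Rpl3l did not share the pattern of most members. Its deviations were 0.02, 0.09 and −0.21 in UtyGT 11, 15 and 31, and −0.15, 0.17 and 0.08 in WT 11, 15 and 31. UtyGT 31 and WT 11, which were high for most members, were its lowest libraries. Its log2 fold change between the groups was −0.06 (SE 0.12, interval −0.34 to 0.21), with means of 2911 ± 306 in UtyGT and 3040.5 ± 341 in WT (SD, n = 3 each). The lowest library was likewise UtyGT 31 for Rpl13a and Rps15a, and it was WT 11 for Rps13. These genes were named after their values were seen.

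The spread of members within groups was moderate. The SD within groups of log2(normalised count + 1) had a median of 0.18 over members, against 0.15 over the 6692 genes with a mean between 200 and 1600 and 0.21 over all genes tested. The ratio of the highest over the lowest library went from 1.13 for Rpl9 to 2.53 for Rpl24. The highest values after Rpl24 were 2.304 for Rpl39 and 1.86 for Rps21. Rpl24 and Rpl39 are also among the members with the fewest reads.

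Summed over the subunits, the large subunit had 24493, 24448 and 27625 normalised counts in UtyGT 11, 15 and 31, and 28606, 28326 and 24290.5 in WT 11, 15 and 31. The small subunit had 13901, 14558 and 16520 in UtyGT, and 16718, 16572 and 13460 in WT. The ratio of large over small was steadier than either sum, at 1.76, 1.68 and 1.67 in UtyGT, and 1.71, 1.71 and 1.80 in WT. It is a ratio of counts over unequal numbers of genes and lengths, not of subunits.

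The ratio averaged 1.70 ± 0.05 in UtyGT and 1.74 ± 0.05 in WT (SD, n = 3 each), and the groups overlapped. The difference of the mean log2 ratios was −0.031, less than the SD of 0.04 within either group, and it took no test because it is a sum over chosen members. Without Rpl3l the ratio was 1.55, 1.46 and 1.52 in UtyGT, and 1.55, 1.51 and 1.57 in WT. With the median count of each subunit in place of the sum, the difference was 0.12. That count can belong to a different gene in each library, as to Rps4x in UtyGT 11 and Rps14 in WT 11. It therefore mixes levels of different genes and cannot show a shift between the subunits. Taken gene by gene, the median log2 fold change was −0.083 in the large and −0.061 in the small subunit.

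**Figure D4:**
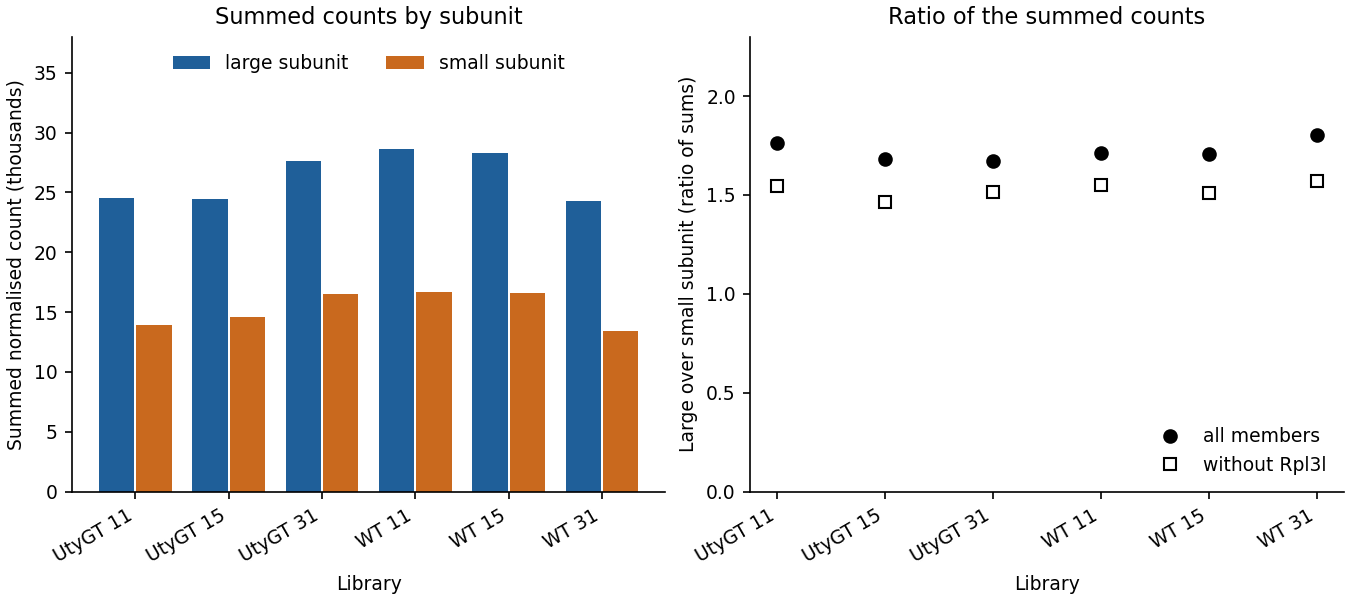
Left, summed normalised counts of large and small subunit genes in each library. Right, the ratio of the sums with all members (filled) and without Rpl3l (open); sums run from 13460 to 28606, while the ratio with all members stays between 1.67 and 1.80.

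The numbers 11, 15 and 31 were compared by limma's F test, with group kept in the model. Within each number, the medians of the members had opposite signs in UtyGT and WT. This test sees only shifts that both libraries of a number share, so it cannot show such opposite shifts. It called 0 of 78 members, against 4.79% of the 16202 genes tested (776 genes). That background was 1244 genes without UtyGT 11, 462 without UtyGT 15 and 369 without WT 15, with 0 of 78 members called in each. At an unadjusted p under 0.05 it counted 0 of 78, against 9.57% of all genes. Without UtyGT 31 that count was 6 of 78, against 2361 of all 16185 genes tested. Without WT 31 it was 1 of 78, against 2063 of 16189, with 0 members called in either case. edgeR and DESeq2 also called 0 of 78 for the numbers. The smallest p in the small subunit were those of Rps15a (0.212), Rps13 (0.272), Rps16 (0.399), Rps21 (0.480) and Rps24 (0.512), and in the large subunit those of Rpl36a (0.259), Rpl15 (0.274), Rpl3 (0.278), Rpl31 (0.309) and Rpl3l (0.336), all by limma. No adjusted p of these was under 0.986. Rps15a was 0.27 higher in number 15 than in number 31, on the log2 scale, and Rpl15 was 0.33 higher.

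Other genes of the ribosome gave a further description. Of 10 genes for ribosomal proteins or close relatives outside the name rule, 8 were tested and 0 called, and their median log2 fold change was −0.09, with 5 below 0 and 3 above. Rack1, a scaffold protein of the small subunit, had 1068, 1146 and 1203 in UtyGT, and 1241, 1118 and 1055 in WT. Fau, which encodes a ubiquitin-like protein fused to a small subunit protein, had 316, 244 and 338 in UtyGT, and 444, 296 and 332 in WT. Rps3a1, of the small subunit, had 481, 407 and 461 in UtyGT, and 506, 526 and 419 in WT. Also tested were Rpl7l1, Rpl22l1, Rpl36al and Rpl9-ps6, with log2 fold changes of −0.12 (SE 0.10), 0.01 (SE 0.13), −0.08 (SE 0.39) and −0.49 (SE 0.37), in the order named. Rps27rt and Rps26-ps1 had at most 3.14 normalised counts in any library and were not tested.

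Messages of other TOP genes, many of which encode translation factors, had medians of the same sign as the members in each of the 6 libraries, but smaller and in another order of size. In 20 such genes the median deviation was −0.05, −0.03 and 0.07 in UtyGT 11, 15 and 31, and 0.08, 0.02 and −0.11 in WT. Tpt1, a small growth-related protein, had 2165, 2213 and 2578 in UtyGT, and 2579, 2531 and 1831 in WT. Eef2, the elongation factor that moves the ribosome along the message, had 4595, 5212 and 5646 in UtyGT, and 5588, 5253 and 4555 in WT. Between the groups 0 of 20 were called, with 11 below 0 and a median of −0.0080. The number test called 1 of them, Vim, which encodes vimentin, an intermediate filament protein of fibroblasts and leukocytes.

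Genes that build ribosomes did not show that order. For 50 ribosome biogenesis genes the median deviation lay between −0.02 and 0.05 in UtyGT and between −0.06 and 0.06 in WT, and it was highest in WT 31, the lowest library of the members. Of these, 0 were called between the groups and 31 were above 0. Of 14 tested regulators of TOP messages and ribosomal protein genes, such as Mtor and Larp1, 0 were called and 10 were above 0. The 77 tested genes of the mitochondrial ribosome had a median log2 fold change of 0.0082, with 0 called and 34 below 0. Their median stood highest in WT 15 (0.15) and lowest in WT 31 (−0.10).

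RNA of other cells and of mitochondria differed between the libraries, in part in the same order. Erythroid markers (6 genes, 5 tested) summed to 682, 518 and 999 normalised counts in UtyGT 11, 15 and 31, and 1215, 1267 and 634 in WT. Atrial cardiomyocyte markers (7 genes) summed to 689, 760.0 and 1288 in UtyGT, and 2380.0, 3337 and 1151 in WT. Between the groups, all 7 atrial markers were below 0 (median −1.57 on the log2 scale), and 6 of 7 had an unadjusted p under 0.05 by limma, against 1.2% of all genes, with 0 called. This is the direction of the members' median. Mitochondrially encoded genes took 2.57%, 1.88% and 2.91% of gene reads in UtyGT, and 2.83%, 2.88% and 1.90% in WT. All of these were low in UtyGT 15 and WT 31 compared with WT 11 and WT 15. In UtyGT 11 the median deviation was −0.13 over members but 0.02 over mitochondrially encoded genes. In UtyGT 31 it was 0.11 over members but −0.05 over atrial markers. Erythroid markers had the sign of the members in both of these libraries. Ventricular cardiomyocyte markers (8 genes) had median deviations of 0.07, 0.05 and −0.03 in UtyGT 11, 15 and 31, and −0.02, 0.06 and −0.08 in WT. These had the sign of the members in WT 15 and WT 31 only.

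Leukocyte markers (12 genes) summed to 13104, 1093 and 27300 in UtyGT, and 34871, 2471 and 25749 in WT, low in both libraries of number 15, and the number test called 12 of 12. Fibroblast markers (12 genes) summed to 1614, 1652 and 3522 in UtyGT, and 4991, 1751 and 2248.5 in WT. Endothelial markers (12 genes) ranged from 1127 to 1312 in UtyGT and from 1023 to 2275 in WT, and mural cell markers (9 genes) from 9054 to 9264 in UtyGT and from 7746 to 10685 in WT. Of all these markers, only Bmp10, of the atrial list, was at 0 in some libraries (UtyGT 11, UtyGT 15 and WT 11). The part of these cells and of mitochondrial RNA in the shifts of the ribosomal protein genes was not tested.

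**Figure D5:**
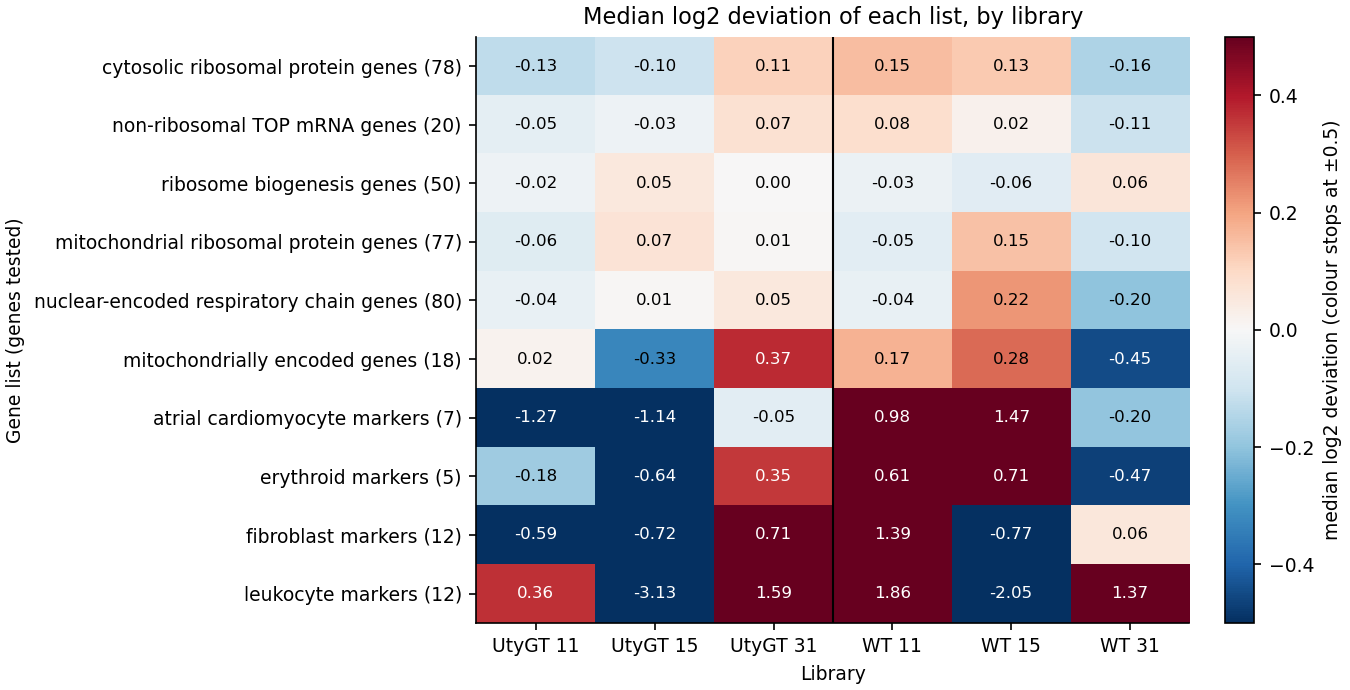
Median deviation of each gene list from the genes' means over 6 libraries (log2 scale), with UtyGT libraries left and WT libraries right of the black line; the number of genes tested is in brackets and colours stop at ±0.5. Cytosolic ribosomal protein genes read −0.13, −0.10 and 0.11 in UtyGT, and 0.15, 0.13 and −0.16 in WT, and erythroid markers have the same sign in every library.

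The members lie on 19 chromosomes, with 14 on chromosome 7, 4 on X and 0 on Y. Small nucleolar RNAs, which guide the modification of ribosomal RNA and are often carried in introns of ribosomal protein genes, are annotated inside 29 of the 80 members. The median log2 fold change was −0.08 in these 29, and −0.08 in the 49 tested members without one. Their library medians were also alike, at −0.13, −0.14 and 0.16 in UtyGT and 0.15, 0.11 and −0.14 in WT with a small nucleolar RNA, and at −0.11, −0.09 and 0.10 in UtyGT and 0.16, 0.14 and −0.16 in WT without one.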

How the data were processed

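Per the labels and methods, nuclear RNA was made into libraries with a stranded low-input total RNA kit. The submitters' notes name CASAVA 1.4, STAR 2.5.1b, featureCounts 1.6.0 and DESeq2 1.22.2, with GRCm38 and Ensembl 98. The strand and multi-mapping settings of the counting are not given in the sources used here. The deposited values are a signal, that is, the read count of each gene after division by the size factor of its library, and whole reads were recovered from 100% of values (tolerance 0.0001). The authors' own comparison columns, on the log2 scale (fold change and its error), as a score (Wald statistic) and as p-value and adjusted p-value, and their mean signal over libraries were not used. A second deposited table holds the 4 libraries numbered 11 and 31 with the same reads (0 genes differed).

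Groups were compared by limma-trend, version 3.58.1, in R 4.3.3, fitted to log2 values with a pseudocount of 1 for the 16202 genes whose mean was 10 or more, two-sided, with Benjamini-Hochberg adjustment over all of them and a threshold of 0.05. The pseudocount makes fold changes of low genes too small. Numbers were compared by limma's F test, with group kept in the model. Alternatives were other pseudocounts (0.5 and 5), no filter or a filter of 50, other scalings, edgeR 4.0.16, DESeq2 1.42.0, the number as block, leaving out each library, and the 4-library table. The scripts were tested on simulated data. Libraries of a group differed beyond sampling noise over members, the chi-square statistic being 2.89 to 5.79 per degree of freedom, and 16.9 to 53.7 over all genes. Exon lengths came from GENCODE M21, and figures were drawn in Python.

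Over all genes, deviations from the group mean correlated between libraries with the same number (r = 0.25 for 11, 0.80 for 15 and 0.41 for 31), and the number was therefore tried as a block, although the labels do not state a pairing. For 11 and 31 the data do not favour it: r was 0.73 for UtyGT 31 with WT 11 and 0.41 for UtyGT 11 with WT 31. Over the members alone r was 0.14, −0.06 and −0.23. Correlations across genes are descriptions.

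Members and gene lists were chosen with earlier results of these data known. Named genes were the 5 members with the smallest p above 0 and the 5 below 0 for the groups, the 5 with the smallest p for the numbers and the 5 highest and 5 lowest levels per kilobase in each subunit, members under the filter, paralog pairs, the stalk genes with Rps6, Rps16 and Rpsa, and the genes outside the name rule. Some items that this rule names are not reported here by name or in the plots by gene.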

Additional observations from a re-analysis of the deposited data

Results flagged for a closer look

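The difference of UtyGT minus WT over ribosomal protein genes had opposite signs in pairs of equal number. On the log2 scale, the median over 78 members was −0.28 in the pair of number 11 and −0.23 in that of number 15, but 0.28 in that of number 31. Each pair holds 1 library a group, and the difference between the pairs was not tested.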

How the results depend on the processing

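For UtyGT against WT, 0 members were called under each of 19 alternatives. The genes called over all genes numbered 1 (Uty), 2 with DESeq2, 4 with DESeq2 and the replicate block, 2 with the replicate block in limma, and between 1 and 2 when a library was left out. The block changed no call of a member, and the median over members with it was −0.08. That median ranged from −0.16 to −0.02 when a library was left out, and turned to 0.011 in the 4-library table. With scaling to library totals it was −0.13, with −0.05 over all genes. For the numbers, 0 members were called under 17 alternatives. The genes called, 776 at first, ranged from 369 to 1244 when a library was left out and were 478 with a filter at a mean of 50. They were 0 in the 4-library table, which holds no library of number 15, so that only numbers 11 and 31 were compared there. The log2 ratio of large over small subunit differed by −0.031 between the groups, and by −0.055 to −0.0052 when a library was left out. With the median count of each subunit it was 0.12, but that count can belong to different genes in different libraries. Causes were not tested. Depth limits the low members most, as for Rpl24, whose interval ran from −1.35 to 0.59.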
